A study of Mus musculus with 8 samples.

Results

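The genes described here are 9 genes of the cytokine pathway that runs through STAT3, chosen by symbol from the 27998 genes measured: the ligand Lif, the receptor chains Il6st, Il6ra, Osmr and Lifr, the transcription factor Stat3, its feedback inhibitor Socs3, and the nuclear factors Bcl3 and Cebpb. They were followed in single mammary epithelial cells of wild-type C57BL/6N mice at 4 stages, with 2 mice and 2 libraries per stage: nulliparous at 8 weeks of age (NP), pregnant at day 14.5 (G), lactating at day 6 (L) and 11 days after weaning, when involution had passed (PI). Cells were sorted for the epithelial surface protein EpCAM, with CD31, CD45 and Ter119 positive cells gated out. NP mice and PI mouse 2 were in oestrus and PI mouse 1 was in dioestrus, so cycle stage and parity cannot be told apart in PI mouse 1. The files hold counts of unique molecular identifiers (UMIs), each marking 1 captured transcript, and the clusters C1 to C19 are those of the authors.

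UMIs were summed per mouse and cluster and are given as CPM, the counts scaled to a sum of 1e6 per mouse and cluster. Values of 2 mice are written in the order of mouse 1 and mouse 2. Libraries held 13785920 to 35711533 UMIs, with a median of 3770 to 9624 UMIs per cell, and 25009 of 25806 barcodes passed the quality flags, which 791 barcodes shared between libraries failed. Of the passing cells, cluster C20, marked as doublets, was not used. Of the sums per mouse and cluster, 51 held at least 20 cells. The pooled classes were luminal progenitors (C6, C7), hormone-sensing progenitors (C1, C2), differentiated hormone-sensing cells (C3, C4), basal cells (C12 to C14), alveolar progenitors (C10, C11) and differentiated alveolar cells (C8, C9). Summed luminal keratin and surface markers were at 17599 CPM or more in luminal progenitor and hormone-sensing sums, and 5 basal markers at 8051 CPM or more in basal sums. The PI basal sums came from 28 and 59 cells and the L differentiated alveolar sums from 43 and 48 cells.

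Cytokines of the IL-6 family bind a specific receptor chain (IL-6 receptor alpha, LIF receptor or oncostatin M receptor), which pairs with the shared chain gp130, the product of Il6st. Janus kinases bound to gp130 then phosphorylate STAT3, which enters the nucleus and induces Socs3, whose protein binds gp130 and the kinases and shuts the signal off. In the mammary gland, LIF made by the milk-filled epithelium activates STAT3 when suckling stops, and STAT3, C/EBP factors and the NF-kB partner BCL3 are known for their part in the cell death and remodelling of involution. None of the stages sampled lies in the first days after weaning, and phosphorylation of STAT3 is not seen by RNA counts.

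Socs3 had the widest range between clusters among the members detected in every cluster (Lif had none in C5 and C15), and it was the only member whose promoter held the palindrome that STAT factors bind. The stretch below is shown for that reason. It lies on the minus strand at chr11:117969452-117969580 (GRCm38.p6), upstream of the Socs3 start in the RefSeq promoter table, 5′ to 3′, with the match to TTCNNNGAA in capitals, 154 to 146 bases before the start. GENCODE holds a longer, noncoding Socs3 transcript that begins further upstream, so the stretch lies inside the gene span given below, in an intron of that transcript.

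Socs3 upstream stretch: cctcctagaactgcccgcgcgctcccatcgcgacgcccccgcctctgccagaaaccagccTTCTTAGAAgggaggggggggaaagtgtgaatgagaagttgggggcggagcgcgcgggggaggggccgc

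TTCNNNGAA, which reads the same on both strands, was found in the 250 bases upstream in 7.02% of all 32851 RefSeq promoters, and in 1 of the 10 promoter entries of the 9 members. The same palindrome with 1 more base in its middle (TTC and GAA with 4 bases between them) was found in 5.85% of all promoters and in none of the members' entries. A match describes these letters only and is no evidence of binding.

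Socs3 (chr11:117966079-117970047, minus strand, GRCm38) was highest in C14, the basal cells of lactation, at 2448 and 2568 CPM. Of the epithelial clusters, C15 of the L mice came next with 975 and 899 CPM, and C8, the differentiated alveolar cells of gestation, was lowest with 20.6 and 24.9 CPM, a 110-fold range between cluster means. The order takes each cluster at 1 stage, with basal cells of NP (C12), G (C13) and L (C14), and leaves out the few PI basal cells, which were higher than C13 for Stat3 and than C12 for Osmr, as given further on. Of the 14 neighbouring pairs in this order, 9 overlapped between mice. C14, C15 and C11 (426 and 376 CPM) did not overlap with each other, and neither did C4 (390 and 373 CPM) with C2 (296 and 312 CPM). In C15 the basal markers summed to 9621 and 11382 CPM, beside pericyte markers at 6070 and 5322 CPM. Most of that basal sum was Acta2 (7376 and 8512 CPM) and Myh11 (1899 and 2492 CPM). Krt5, Krt14 and Trp63 were at only 4.51%, 6.08% and 3.18% of C14 in mouse 1. In mouse 2 they were at 10.7%, 5.07% and 2.90%.

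**Figure D1:**
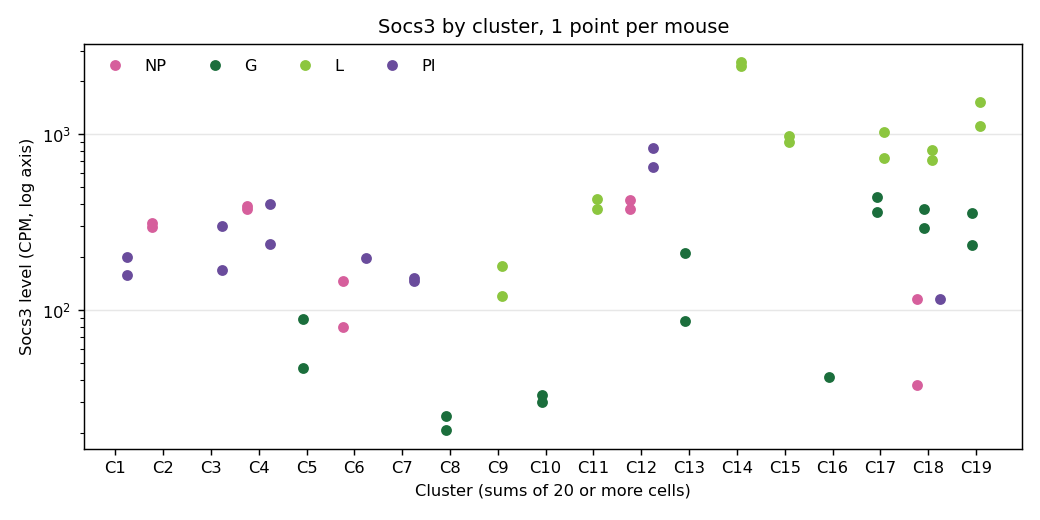
Socs3 level in CPM (log axis) in each cluster of 20 or more cells, 1 point per mouse, coloured by stage. The L mice hold the highest points, 2448 and 2568 CPM in C14, and C8 and C10 of the G mice the lowest.

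In basal cells, Socs3 was at 421 and 372 CPM in NP and at 219 and 86.4 CPM in G. The L basal cells held 2447 and 2567 CPM, and those of PI 822 and 624 CPM. The L values lay far above those of every other stage, and the G values lay below the NP values. Socs3 fell from NP to G (log2 fold change -1.30 ± 0.27 SE, adjusted p = 0.00105) and rose from G to L (log2 4.17 ± 0.29, adjusted p = 9.5e-09, edgeR quasi-likelihood test with Benjamini-Hochberg adjustment over all genes). Without 1 mouse at a time the rise lay between log2 3.66 and 4.98 and kept its call, and the fall lay between -2.12 and -0.77 and kept its call.

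Genes that respond to tissue dissociation moved with stage as well. The summed level of 24 such genes (Fos, Jun, Egr1, heat shock genes and others) in basal cells was 8527 and 7755 CPM in NP, and 14846 and 10214 CPM in G. It reached 49106 and 41583 CPM in L, with 12178 and 14820 CPM in PI, and 21 of the 24 rose from G to L. From NP to G the sum was higher in both G mice and Socs3 was lower, and from G to L both were higher. Stage and stress genes cannot be told apart in the L basal cells, and their part in the Socs3 rise was not tested. Alveolar progenitors of gestation (C10) held 22433 and 20153 CPM of stress genes beside 32.9 and 29.9 CPM of Socs3. Those of lactation (C11) held 41589 and 32698 CPM beside 426 and 376 CPM. Across the 51 sums the Pearson correlation of the log2 levels was 0.58, and 0.50 over the 49 sums outside C14. Sums of 1 mouse share a library and its depth.

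**Figure D2:**
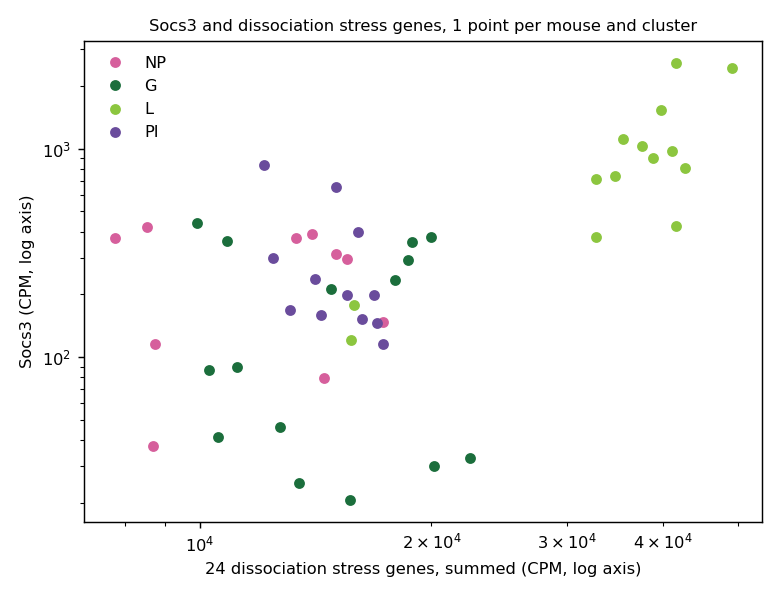
Socs3 (CPM) against the summed level of 24 dissociation stress genes (CPM), both on log axes, 1 point per mouse and cluster. All but 2 of the L sums lie to the right, at 32698 CPM of stress genes or more, and the lowest Socs3 values are G sums at 20.6 to 32.9 CPM.

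The high Socs3 of lactation was not restricted to basal cells. C17, C18 and C19, the clusters led by immune, fibroblast and endothelial markers, were at 1032 and 735, 715 and 811, and 1116 and 1524 CPM in L mice. In G mice the same clusters were at 359 and 442, 376 and 292, and 356 and 236 CPM. The L values were above the G values in each of these 3 clusters. No test was made, and the share of all genes with this order is not given here. C17 also held basal markers at 25.1% to 36.7% of C14 in L mouse 1 and 7.78% to 11.7% in mouse 2, beside Socs3 at 42.2% and 28.6%. Stress genes in these L sums lay between 32725 and 42730 CPM and in the G sums between 9927 and 19963 CPM.

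Alveolar progenitors held 418 and 369 CPM in L against 32.9 and 29.9 in G, and differentiated alveolar cells 121 and 179 against 20.6 and 24.9. In the secretory classes both differences passed the test (log2 3.93 ± 0.18, adjusted p = 1.0e-06, and log2 3.65 ± 0.21, adjusted p = 1.3e-07). The C11 level of Socs3 was 17.4% and 14.7% of the C14 level in the same mouse, and that of 6 basal markers (Acta2, Krt5, Krt14, Trp63, Myh11 and the oxytocin receptor Oxtr) was 12.6% to 18.5% in mouse 1 and 10.7% to 14.7% in mouse 2. In C9 the Socs3 level was 4.92% and 6.93% of C14, beside markers at 4.27% to 7.29% and 1.84% to 4.27%. In C11 the Socs3 share lay within the range of the basal markers in both mice, and in C9 in mouse 1 and above it in mouse 2. When the basal profile of the same mouse was subtracted at the share given by the summed basal markers (13.8% and 11.3% of the UMIs of L alveolar progenitors), 92 of 472 and 68 of 321 Socs3 UMIs were left, and the change was log2 1.94 ± 0.21 (adjusted p = 0.00029) in alveolar progenitors. In differentiated alveolar cells 0 of 70 and 78 of 133 UMIs were left, with log2 2.43 ± 0.62 (adjusted p = 0.0185). This subtraction was chosen after seeing the data. Its tests take the basal share as known, so their SE and p-values leave out the error of that share. The UMIs left depend on the share, and single basal markers in C11 ranged from 12.6% to 18.5% and from 10.7% to 14.7%. These tests therefore cannot decide how much of the Socs3 came from the secretory cells. In C18 and C19 Socs3 was at 29.2% to 59.4% of C14, and the 6 markers were at 6.22% or less. No subtraction was made in these clusters, and the part of basal RNA in their Socs3 was not tested.

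**Figure D3:**
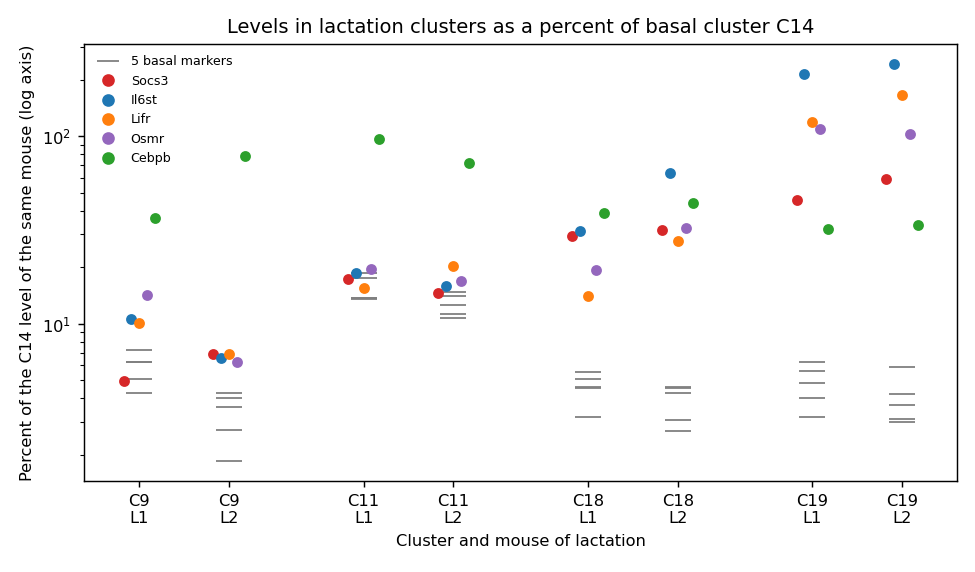
Level in clusters C9, C11, C18 and C19 of each L mouse as a percent of the C14 level in the same mouse (log axis), with 5 basal markers as grey dashes and 5 members as points. In C11 Socs3 (17.4% and 14.7%) lies among the basal markers, in C18 and C19 it lies above them, and Cebpb lies above them in all 4 clusters.

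Lif (chr11:4257557-4272514, plus strand), the ligand, was a luminal progenitor gene in these cells: C6 of NP was at 174 and 176 CPM and C7 of PI at 115 and 127 CPM. Hormone-sensing progenitors were at 81.6 and 93.9 in C2 and 83.6 and 87.3 in C1. Basal cells of lactation were at 4.64 and 5.42 CPM. C5 and C15 had 0 UMIs in both mice, which allows up to 24.3 and 11.6 CPM in C5 and 4.66 and 13.3 CPM in C15. In C11 of lactation the mice differed widely, 23.1 and 167 CPM, and in mouse 2 the 142 UMIs came from 35 of 89 cells with up to 20 in 1 cell. The change of Lif in alveolar progenitors (log2 1.87 ± 0.66, adjusted p = 0.061) did not pass the test, and it was -0.074 without L mouse 2, so it rested on that mouse.

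Il6ra (chr3:89864059-89913196, minus strand), which encodes the chain that binds IL-6, was highest in this order in basal cells of gestation (C13, 50.3 and 54.2 CPM, beside 52.5 and 57.6 in PI basal cells) and lowest in alveolar progenitors of gestation (C10, 1.53 and 3.74 CPM, from 2 and 6 UMIs). Osmr (chr15:6813577-6874969, minus strand), the oncostatin M receptor chain, was highest in the basal clusters, at 172 and 167 CPM in C12, 146 and 173 in C14 and 152 and 164 in C13, whose mice overlapped. C6 was close to them with 156 and 143 CPM, and secretory cells and C5 were far lower, with 8.39 and 13.6 CPM in C8. Lifr (chr15:7090614-7197489, plus strand), the LIF receptor chain, was at 174 and 157 CPM in C14 and at 136 and 149 in C3, and at only 7.54 and 7.05 CPM in C6. The cluster with the highest Lif thus had one of the lowest Lifr levels, and across the 51 sums Lifr and Lif had the lowest correlation of any pair of members (Pearson -0.35 on log2 CPM, over sums that share libraries).

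Il6st (chr13:112464070-112510086, plus strand), the shared chain gp130, was highest among epithelial clusters in C14 at 213 and 184 CPM, next in this order in C15 at 88.5 and 102, and lowest in C9 at 22.7 and 12.1. The endothelial cluster C19 of lactation was higher than C14, at 458 and 448 CPM. PI basal cells, left out of the order, were at 114 and 125 CPM. Milk protein genes took a large part of the C9 total and so lower its CPM. Relative to the bulk of the other genes, Il6st of differentiated alveolar cells changed from G to L by log2 0.49 ± 0.33 (adjusted p = 0.33, edgeR). With the basal profile subtracted that change was -0.36. Il6st and Osmr had the highest correlation of any pair of members, 0.77. In C11, Il6st (18.6% and 15.98% of C14), Osmr (19.6% and 16.99%) and Lifr (15.4% and 20.2%) stood close to the highest basal markers (18.5% and 14.7%), with Lifr of mouse 1 within their range and the other values above it.

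Stat3 (chr11:100885098-100939540, minus strand) varied least between clusters, 4.66-fold from C13 (342 and 368 CPM) to C9 (76.9 and 75.5 CPM). With the milk protein genes left out of the total, C9 was no longer the lowest cluster, and C5 was lowest at 131 CPM. Bcl3 (chr7:19808462-19822770, minus strand) was highest in C7, at 101 and 72.4 CPM, and 12 of its 14 neighbouring pairs overlapped. Cebpb (chr2:167688915-167690418, plus strand), which encodes the C/EBP factor needed for alveolar growth, was highest in C14 (504 and 733 CPM), and at 489 and 527 in C11. It was lowest in hormone-sensing cells, with 34.6 and 22.2 CPM in C4 and 8.11 and 23.2 in C5. Its C11 level was 97.2% and 71.9% of C14 and its C9 level 36.8% and 78.9%, above the basal markers in both mice. Stat3, Il6ra, Bcl3 and Cebpb overlap genes on the opposite strand (Stat5a in the case of Stat3, Tmem189 in the case of Cebpb).

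**Figure D4:**
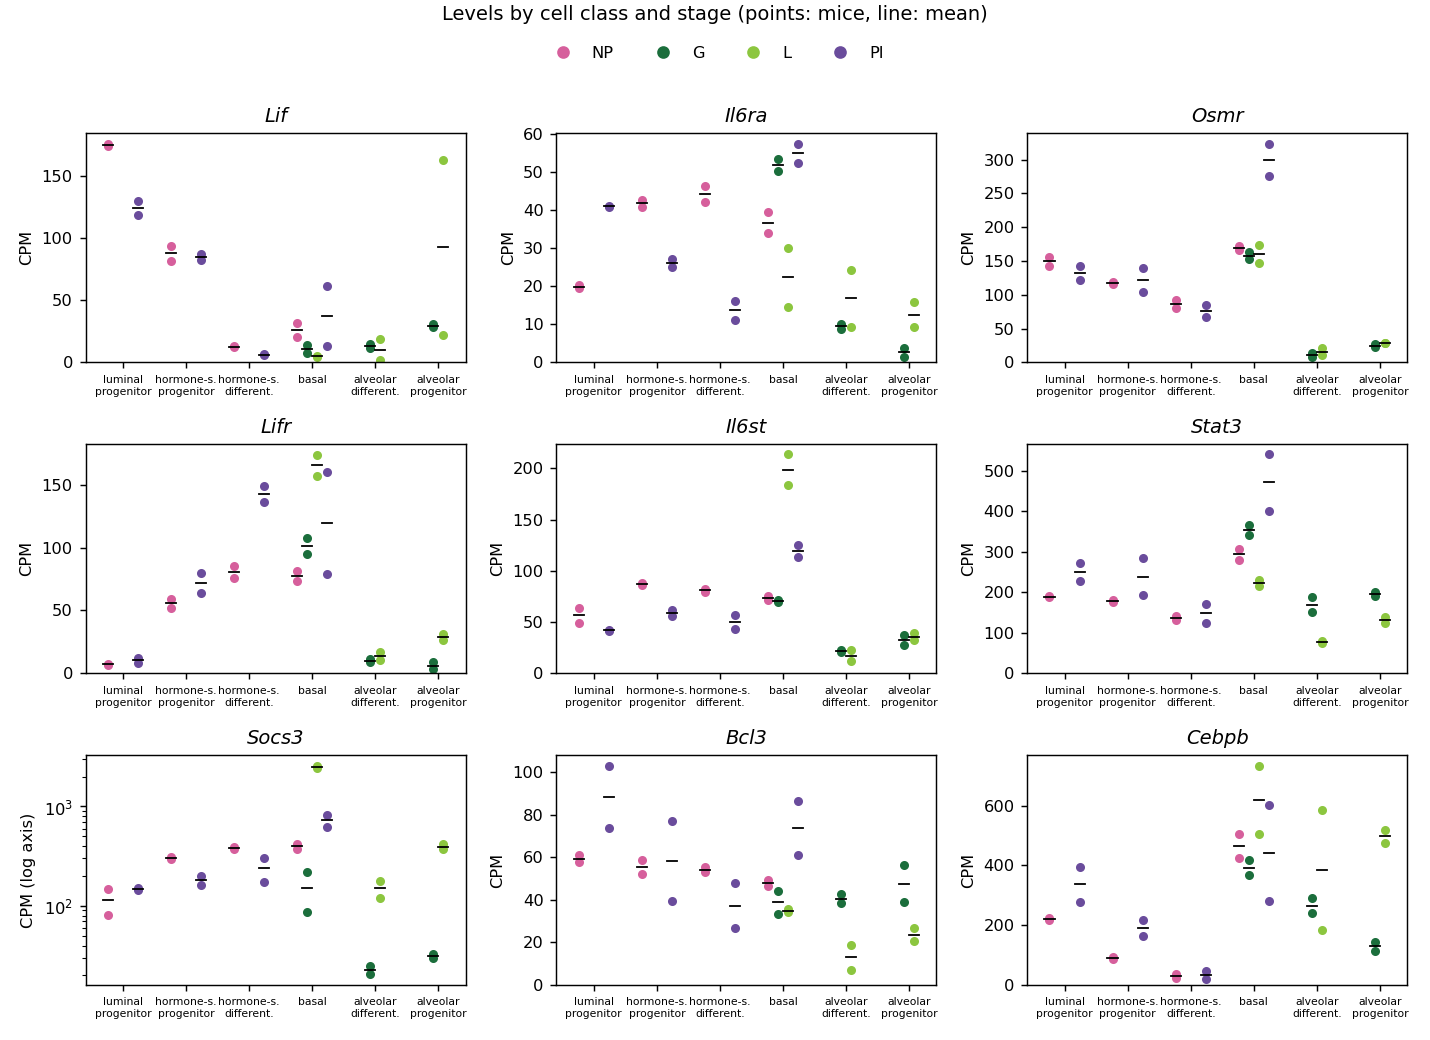
Level of each member in CPM by cell class, with 1 point per mouse, a line at the mean of 2 mice and colours for the stages (log axis for Socs3). Lif is highest in NP luminal progenitors, Lifr lowest there outside secretory cells, and Socs3 of L basal cells lies at 2447 and 2567 CPM.

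The comparison of PI with NP asks what differs in the same luminal cell class after a full cycle of gestation, lactation and involution. The age of the PI mice is not given, so age and parity cannot be told apart in this comparison. In luminal progenitors 5 of the 9 members passed the test, 4 up and 1 down, where 26.9% of all 10766 genes tested passed. Il6ra was at 19.6 and 20.3 CPM in NP and 41.0 and 41.3 in PI. The groups were far apart, and Il6ra rose by log2 1.13 ± 0.16 (adjusted p = 0.0005), with the call kept without each mouse in turn. Cebpb was at 215 and 223 CPM in NP and 394 and 278 in PI (log2 0.70 ± 0.16, adjusted p = 0.0087). Bcl3 was at 57.6 and 60.9 in NP and 103 and 73.9 in PI (log2 0.66 ± 0.17, adjusted p = 0.0146). Stat3 was at 190 and 188 in NP and 272 and 227 in PI (log2 0.48 ± 0.13, adjusted p = 0.0181). Lif was lower, at 174 and 176 in NP and 119 and 130 in PI (log2 -0.41 ± 0.12, adjusted p = 0.0277). Of the PI mice, PI mouse 1, the mouse in dioestrus, was the higher for Cebpb, Bcl3 and Stat3. The Cebpb call was lost without NP mouse 1, Bcl3 without NP mouse 1 or PI mouse 1, and Stat3 and Lif without NP mouse 1, NP mouse 2 or PI mouse 1. Socs3 (147 and 81.1 CPM in NP, 153 and 145 in PI), Il6st, Osmr and Lifr did not pass.

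Hormone-sensing progenitors changed otherwise: 4 of 9 members passed, 1 up and 3 down, where 16.6% of 10692 genes passed. Cebpb was at 93.5 and 85.5 CPM in NP and 218 and 163 in PI, and rose by log2 1.06 ± 0.15 (adjusted p = 0.00055), without loss of the call when any 1 mouse was left out. Socs3 was at 296 and 312 in NP and 162 and 200 in PI (log2 -0.75 ± 0.15, adjusted p = 0.0053). Il6ra was at 40.9 and 42.8 in NP and 27.2 and 25.0 in PI (log2 -0.70 ± 0.16, adjusted p = 0.0108). Il6st was at 86.1 and 87.8 in NP and 62.0 and 56.1 in PI (log2 -0.58 ± 0.14, adjusted p = 0.0132). The calls of Socs3, Il6ra and Il6st were lost without NP mouse 1 or NP mouse 2. Stat3 was at 177 and 182 CPM in NP and 284 and 193 in PI, and did not pass.

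In differentiated hormone-sensing cells 5 of 9 members passed, 1 up and 4 down, where 14.3% of 11994 genes passed. Il6ra was at 42.1 and 46.3 CPM in NP and 11.2 and 16.1 in PI, a fall of log2 -1.66 ± 0.20 (adjusted p = 0.00028). Lif was at 12.9 and 11.96 in NP and 6.03 and 6.35 in PI (log2 -1.03 ± 0.20, adjusted p = 0.0069). Il6st was at 82.4 and 79.8 in NP and 57.3 and 43.8 in PI (log2 -0.77 ± 0.15, adjusted p = 0.0072). Lifr went the other way, from 85.7 and 75.8 in NP to 136 and 149 in PI (log2 0.77 ± 0.15, adjusted p = 0.0067). These 4 calls held without each mouse in turn. Bcl3, at 55.2 and 52.9 in NP and 47.7 and 26.7 in PI, had an adjusted p of 0.0487 that was lost without NP mouse 1, NP mouse 2 or PI mouse 2. Socs3 was at 388 and 373 in NP and 174 and 303 in PI (log2 -0.71 ± 0.24, adjusted p = 0.072). In this class, then, the gp130 and IL-6 receptor chains were lower and the LIF receptor chain higher in PI.

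**Figure D5:**
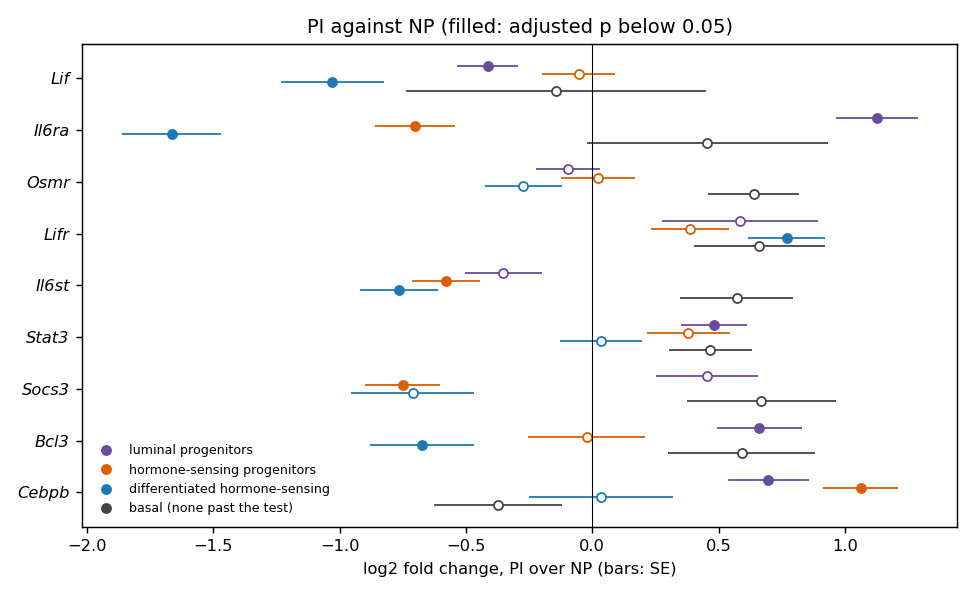
Log2 fold change of each member from NP to PI in 4 cell classes, with bars of 1 SE and filled points for an adjusted p below 0.05. Il6ra lies at 1.13 in luminal progenitors and at -0.70 and -1.66 in the hormone-sensing classes, and no basal point is filled.

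The difference between classes was tested directly, in 1 fit with the mouse as a term. Between luminal progenitors and differentiated hormone-sensing cells the change from NP to PI differed for 6 of 9 members, where 20.2% of 11743 genes passed. For Il6ra the difference was log2 2.75 ± 0.21 (adjusted p = 1.7e-08), for Bcl3 1.30 ± 0.16 (adjusted p = 8.1e-06) and for Socs3 1.21 ± 0.26 (adjusted p = 0.00215), and these 3 held without each mouse, and Cebpb, Lif and Stat3 also passed with smaller differences. DESeq2 called Il6ra and Bcl3 but not the other 4, and its share over all genes is not given here. Between the hormone-sensing progenitors and their differentiated cells 3 of 9 passed, Cebpb, Lif and Il6ra, where 3.82% of the genes passed. The mice of each comparison are the same, so the classes are not independent samples.

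Basal cells gave no member past the test from NP to PI with edgeR, where 4.47% of 11870 genes passed. At an unadjusted p below 0.05 there were 5 of 9 members, where 2223 of all 11870 genes were. DESeq2 called 2 members, and its share over all genes is not given here. Osmr was at 172 and 167 CPM in NP and 323 and 275 in PI (log2 0.64 ± 0.18, adjusted p = 0.052), and Stat3 at 308 and 281 in NP and 542 and 400 in PI. Both PI mice lay above both NP mice for these genes, an order whose share among all genes is not given here. The same held for Il6st (75.9 and 71.9 in NP, 114 and 125 in PI, log2 0.57 ± 0.22, adjusted p = 0.17) and Socs3 (log2 0.67 ± 0.29, adjusted p = 0.22), which did not pass either. Lifr was at 78.7 and 160 CPM in the PI mice and overlapped with NP, and its direction turned without PI mouse 2. The median of all genes in this comparison was log2 -0.20. The PI sums held few cells, and immune markers were at 1040 CPM in PI mouse 1 and at 32.0 in mouse 2, and their part in these values was not tested. Of 6 ligands of the family tested in this comparison, 2 passed: Il6 was at 5.17 and 4.55 CPM in NP and 69.9 and 106 in PI (8 and 33 UMIs, log2 4.12 ± 0.41, adjusted p = 1.5e-05), and Il11 at 17.9 and 18.2 in NP and 43.7 and 115 in PI (log2 2.20 ± 0.38, adjusted p = 0.0021).

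From NP to gestation, 3 of 9 members passed in basal cells, where 39.9% of genes passed: besides Socs3, Lif fell (32.0 and 20.0 CPM to 13.8 and 7.41, log2 -1.26 ± 0.33, adjusted p = 0.0064) and Lifr rose (73.8 and 81.5 to 107 and 94.7, log2 0.46 ± 0.17, adjusted p = 0.0395). Luminal markers in these basal sums fell as well, from 6192 and 4336 CPM in NP to 1756 and 1876 in G, and their part in the lower Lif, a gene high in luminal progenitors, was not tested. The Lif call was lost without NP mouse 1 or G mouse 2, and that of Lifr without NP mouse 1, NP mouse 2 or G mouse 1.

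From gestation to lactation 7 of 9 members passed in basal cells, 4 up and 3 down, where 50.1% of genes passed. Beside Socs3, Il6st rose from 69.2 and 72.0 CPM to 213 and 184 (log2 1.62 ± 0.14, adjusted p = 6.6e-08). Lifr rose from 107 and 94.7 to 174 and 157 (log2 0.84 ± 0.16, adjusted p = 0.00032), and Cebpb from 366 and 418 to 504 and 733 (log2 0.79 ± 0.20, adjusted p = 0.0041). Il6ra fell from 50.3 and 53.6 to 14.7 and 30.1 (log2 -1.09 ± 0.24, adjusted p = 0.0012), and Stat3 from 341 and 366 to 215 and 231 (log2 -0.53 ± 0.13, adjusted p = 0.0034). Lif was low throughout, at 13.8 and 7.41 in G and 4.64 and 5.42 in L (log2 -0.94 ± 0.34, adjusted p = 0.0278), and lost its call without G mouse 1 or L mouse 1. The transcript of the inhibitor Socs3 and those of the chains Il6st and Lifr were thus higher in lactation while that of Stat3 was lower.

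In the secretory classes 4 of 9 members passed from G to L in each, with 18.7% of 11860 genes passing in differentiated alveolar cells and 28.0% of 8446 in alveolar progenitors. Cebpb, whose share of the C14 level was above that of the basal markers, rose in alveolar progenitors, which held 114 and 144 CPM in G and 476 and 516 in L (log2 2.22 ± 0.17, adjusted p = 2.1e-05), and the change was log2 2.27 ± 0.18 with the basal profile subtracted. In differentiated alveolar cells Cebpb was at 239 and 289 CPM in G and 184 and 584 in L, which overlap. There milk protein genes made up 443710 and 416270 CPM in L and 96653 and 57393 in G, and the fitted change (log2 1.48 ± 0.37, adjusted p = 0.0148) is relative to the bulk of the other genes, whose median was log2 -0.14. Its call was lost without G mouse 2 or L mouse 2. Il6ra (log2 1.65 ± 0.42, adjusted p = 0.0166) and Lifr (log2 1.36 ± 0.41, adjusted p = 0.036) passed in differentiated alveolar cells on 14 and 7 and on 10 and 8 UMIs in the L mice. The CPM of the mice overlapped between G and L for both genes, and the Il6ra call was lost without G mouse 1, G mouse 2 or L mouse 1, and that of Lifr without any 1 mouse. In alveolar progenitors Il6ra rested on 2 and 6 UMIs in G and 18 and 8 in L, and Lifr on 5 and 14 in G and 30 and 27 in L. The Il6ra call there was lost without G mouse 1 or L mouse 1, and that of Lifr held. Stat3 was at 151 and 189 CPM in G and 79.7 and 75.2 in L differentiated alveolar cells, and Bcl3 at 38.3 and 42.6 in G and 6.93 and 18.8 in L. Both L mice were lower, but relative to the bulk of the other genes neither passed, and the Bcl3 change was log2 -0.67 with an adjusted p of 0.22. In alveolar progenitors Bcl3 was at 39.0 and 56.2 in G and 20.4 and 26.5 in L (log2 -0.77 ± 0.29, adjusted p = 0.075). With the basal profile subtracted, 3 members passed in each class, where 17.0% of genes passed in differentiated cells and 22.8% in progenitors. Socs3 and Cebpb passed in both classes, Il6ra in differentiated cells, and Lif in progenitors, where it had not passed before (log2 2.09 ± 0.66, adjusted p = 0.048). These tests too took the basal share as known, and without subtraction the Lif change rested on L mouse 2. Lifr lost its call in differentiated cells, and Il6ra and Lifr in progenitors had too few UMIs left to be tested.

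Among the other genes of the pathway, the receptors Cntfr and Il11ra1 also changed in differentiated hormone-sensing cells. Cntfr, the ciliary neurotrophic factor receptor, was at 16.9 and 18.8 CPM in NP and 7.94 and 9.47 in PI differentiated cells (log2 -1.03 ± 0.20), and Il11ra1, the IL-11 receptor chain, at 34.9 and 33.9 in NP and 51.8 and 60.6 in PI (log2 0.67 ± 0.16). Of 6 receptors tested there, 2 rose and 3 fell, where 7.64% of all genes rose and 6.65% fell. In basal cells from G to L, 4 of 6 receptors rose and 1 fell, and of 6 ligands tested 1 rose and 4 fell, where 25.2% of all genes rose and 24.9% fell. Il11 was at 7.80 and 8.75 CPM in G and 1.37 and 1.62 in L (log2 -2.33 ± 0.35), whereas Ctf1, which encodes cardiotrophin 1, was at 14.3 and 13.7 in G and 38.7 and 32.8 in L (log2 1.48 ± 0.18). Il6 itself was at 25.4 and 15.3 CPM in G and 20.9 and 20.2 in L basal cells, and at 5.17 and 4.55 in NP (log2 2.11 ± 0.31 from NP to G).

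The inhibitors did not move as a block with Socs3. From G to L in basal cells 4 of 16 rose and 9 fell, against 25.2% and 24.9% of all genes. Cish, another cytokine-induced inhibitor, went from 44.8 and 22.0 CPM to 66.4 and 73.7, while Ptprt, a tyrosine phosphatase, went from 7.29 and 8.75 to 1.28 and 0.78 and Pias4 from 24.6 and 30.5 to 14.4 and 12.8. From NP to PI, Socs2, an inhibitor of growth hormone and prolactin signalling, rose in both hormone-sensing classes, from 56.1 and 57.2 CPM to 251 and 251 in differentiated cells (log2 2.09 ± 0.15, adjusted p = 1.2e-05). Socs5 fell in luminal progenitors from 120 and 125 CPM to 41.1 and 32.8 (log2 -1.65 ± 0.15, adjusted p = 2.1e-05). Among the kinases, STATs and adaptors, Stat5a rose beside Stat3 in luminal progenitors from NP to PI (log2 0.96 ± 0.24, adjusted p = 0.0145), and the adaptor Gab1 fell in differentiated hormone-sensing cells (log2 -0.73 ± 0.17, adjusted p = 0.0156). Of 11 NF-kB subunits and inhibitors, where 13.9% of all genes rose and 13% fell, 4 rose (Nfkb1, Nfkbib, Bcl3 and Rel) and 2 fell (Nfkbia and Nfkbiz) in luminal progenitors.

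Of the genes listed as STAT3 targets of involution, 20 of 30 tested rose and 5 fell from NP to PI in luminal progenitors, with a median of log2 0.70 against -0.017 for all genes, of which 13.9% rose and 13% fell. In hormone-sensing progenitors 15 of 29 rose and 2 fell, against 9.58% and 7.05% of all genes. In their differentiated cells 3 of 26 rose and 3 fell, against 7.64% and 6.65%. Those with the largest changes were acute phase genes: Hp, encoding haptoglobin, was at 8.15 and 20.3 CPM in NP and 2048 and 3548 in PI luminal progenitors, and Saa1, serum amyloid A, at 0 and 0.41 in NP and 41.4 and 37.8 in PI. Fgg and Fgb, which encode fibrinogen chains, were lower in PI luminal progenitors (Fgg 16.9 and 25.7 CPM in NP, 4.51 and 6.48 in PI). The list holds Socs3, Bcl3, Cebpb and Osmr, and other factors than STAT3 are known to drive many of its genes. Like the other lists, it was chosen with earlier results of these data known. Its counts and median therefore describe the listed genes and are no test of the set. From G to L, 20 of 24 rose in alveolar progenitors and 17 of 28 in differentiated alveolar cells, where 15.7% and 9.54% of all genes rose. In basal cells 9 of 30 rose and 9 fell, against 25.2% and 24.9% of all genes. In the secretory classes Fos and Junb, named because both lists hold them, rose too, and stress genes as a whole rose in 17 and 15 of 24.

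The genes whose levels were most like those of the members over the 51 sums, among 5954 genes of at least 20 CPM, were Pbxip1 (Pearson 0.80), Nfil3 (0.75) and the stress gene Junb (0.74) for Socs3. For Osmr they were Rock2 (0.89), Btbd7 and Slco2a1, for Stat3 Dnttip2 (0.85), Chd1 and Cnbp, and for Cebpb Rhoj (0.84), Thbs1 and Pfkp. For Lif they were Baiap2 (0.83), Dmkn and Far1, for Lifr Hif1a (0.78), Creb3l2 and Cnn3, and for Il6st Sav1 (0.83), Tnfrsf1a and Bmpr2. For Bcl3, Pwwp2a (0.79) and Kat5 were among them. Il6ra had the weakest matches, Nbl1 (0.61), Hk2 and Abl2. These sums share mice and libraries, so the values describe likeness only.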

How the data were processed

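Libraries of the 10x Chromium 3′ type, 1 per mouse, were read against mm10 with STAR (per the labels), and the deposited matrices hold raw UMI counts of genes in cells. Versions are not given in the sources used here. A table of the authors gives each cell's library, quality flags, cluster and mitochondrial share as a fraction. Cells passing all flags were used, barcodes seen in several libraries had been failed there, and C20, marked as doublets in that table, was left out. No doublet caller was run. The combined matrix was not used. Counts were summed per mouse and cell class. Stages were compared in R 4.3.3 by the edgeR 4.0.16 quasi-likelihood test (TMM, genes kept by filterByExpr at a minimum count of 10 and total of 15), with the Benjamini-Hochberg adjustment taken over every gene tested and a threshold of 0.05. Basal cells of all stages shared 1 fit. The SE is the size of the log2 fold change divided by the square root of F. With 2 mice per stage, an exact permutation test of a single value could not reach 0.05. Replicates are separate mice. Total counts per library limit the precision of low values, and the UMI sums carry counting error beside differences between mice. The likeness used log2(CPM + 1) and Python 3.11.15. Coordinates are of GENCODE vM21, matched by gene ID.

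The 9 members were given. The members and lists were chosen with earlier results of these data known. Named beyond the members were genes of the lists past the test, at most the 4 with the largest change in each direction, and for likeness the 3 with the highest correlation. Fos and Junb were named after their values were seen. Alternatives were DESeq2 1.42.0, RLE, no filter, glmTreat (log2 fold 1, FDR 0.01), no milk genes, main clusters only, equal depth, 50 cells per sum, a replicate block and each mouse left out. Subtraction of the basal profile was added after seeing the data. Fits were tested on simulated counts. Some genes of the lists are not reported here.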

Additional observations from a re-analysis of the deposited data

Results flagged for a closer look

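Changes from NP to PI that differed between cell classes by the interaction term are listed here, all with 2 mice per stage. Luminal progenitors minus differentiated hormone-sensing cells gave log2 2.75 for Il6ra, which rose in the first class and fell in the second. The same difference was 1.30 for Bcl3, 1.21 for Socs3, 0.66 for Cebpb, 0.61 for Lif and 0.43 for Stat3. Hormone-sensing progenitors minus differentiated hormone-sensing cells gave 1.04 for Cebpb, 0.95 for Lif and 0.88 for Il6ra. The calls of Cebpb were lost without NP mouse 1 or PI mouse 2 in both, those of Stat3 and of Lif in the first without NP mouse 1, NP mouse 2 or PI mouse 2, that of Lif in the second without NP mouse 1 or PI mouse 2, and that of Il6ra in the second without NP mouse 1, NP mouse 2 or PI mouse 1.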

How the results depend on the processing

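Of 41 changes of members past the test, 20 kept their call without each mouse in turn and 21 lost it without at least 1; none of the 41 reversed under any alternative. The number of members called was 5 in luminal progenitors (2 to 5 without 1 mouse), 4 in hormone-sensing progenitors (1 to 5), 5 in differentiated hormone-sensing cells (4 to 6), 0 in basal cells from NP to PI (0 in each), 3 from NP to G (1 to 2), 7 from G to L (6 to 7), 4 in differentiated alveolar cells (1 to 3), 4 in alveolar progenitors (4 to 5), and 6 and 3 for the differences between classes (3 to 7 and 0 to 2). With the fold threshold of glmTreat the counts were 0 in the 3 luminal comparisons of PI with NP and in basal cells from NP to G, 2 in basal cells from G to L, 1 in differentiated alveolar cells and 2 in alveolar progenitors. DESeq2 gave 2 in hormone-sensing progenitors, 2 in basal cells from NP to PI and 2 for the first difference between classes. In basal cells from NP to PI, RLE gave 1, no filter 2, main clusters only 1 and equal depth 1. Equal depth gave 1 in basal cells from NP to G, 3 from G to L and 2 in differentiated alveolar cells; it leaves fewer UMIs. The other causes were not tested. Shares over all genes under these alternatives, including the fits without 1 mouse, are not given here. These counts therefore describe only how the calls of the members depend on the processing.

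Replicate numbers did not pair the mice (correlation of deviations -0.052 to 0.073). With a replicate block the counts were 6 in luminal progenitors, 4 and 6 in the hormone-sensing classes, 0, 3 and 7 in basal cells, 4 in differentiated alveolar cells and 6 in alveolar progenitors. The share over all genes with this block is not given here either. Of the changes that were not called but had a log2 size of 0.5 or more, direction reversed for Lifr in basal cells from NP to PI (log2 -0.19 without PI mouse 2, and up to 0.92 without another mouse), and for Lif in differentiated alveolar cells (-0.93 with main clusters only, -2.14 without L mouse 2, up to 1.41 without another) and alveolar progenitors (-0.074 without L mouse 2, up to 2.75 without another). Smaller changes were not followed under every alternative, but with the basal profile subtracted Il6st turned from log2 0.41 to -1.06 and Osmr from 0.47 to -0.92 in alveolar progenitors, and Il6st from 0.49 to -0.36 in differentiated alveolar cells, none of them past the test. The lowest Stat3 level was 131 CPM without milk genes and 134 with sums of 50 or more cells, which drop C9, and the lowest Bcl3 and Cebpb levels were then 23.7 and 28.4 CPM.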
